A study of Mus musculus and Rattus norvegicus with 85 samples.

Results

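Cardiac muscle genes of the lung were described in 85 expression arrays, 1 per animal, from female mice and rats that had inhaled chloroprene, the monomer of a synthetic rubber. The members are 10 genes: Myl7, Myl4, Nppa, Sln, Myh6, Actc1, Tnni3, Tnnt2, Mybpc3 and Ryr2. They were chosen by symbol from earlier results on these same arrays, with the signals of single animals known. Their spread and their likeness to each other are therefore given as a description without a test. Tests were run on their differences between exposure groups and on Myl7 against other tissues and RNA quality. The p-values of these tests are not independent of the choice of members. Every probe set that the array annotation assigns to these symbols was read. In mouse 16 probe sets carry 1 of the symbols alone, and all 10 genes had a probe set that passed the filter on low signals, among 13796 genes that passed it. In rat 12 probe sets carry 1 symbol alone and 6 of the 10 genes passed (Myl7, Myl4, Sln, Myh6, Tnni3 and Mybpc3), among 11010 genes. A probe set passed when its signal lay above the 40th percentile of the species' whole table on at least 5 arrays.

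Mice were of the B6C3F1/Crl hybrid and rats of the strain written F334/NCrl in the sample labels and F344/NCrl in the study's design text. All animals were 10 weeks old when exposure began and inhaled the vapour for 6 hours a day on 5 days a week. Mice received 0 (air), 0.3, 2, 13 or 90 ppm for 5 days, or 0.3, 2, 13 or 90 ppm for 15 days. Rats received 5, 30, 90 or 200 ppm for 5 or 15 days. Each of the 9 mouse and 8 rat groups held 5 animals. Air controls were at hand for mice at 5 days only, so the other comparisons run against the lowest concentration, whose animals were exposed too. RNA came from whole right lung lobes tied off at the right bronchus, and no vessel was dissected, so the arrays do not show which structure the cardiac RNA came from. For 9 mice of the 15-day groups the labels' duration field reads 5 days where title and treatment protocol read 15, and the title was followed.

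In rodents, heart muscle cells extend from the left atrium along the walls of the pulmonary veins into the lung, as a sleeve outside the vein's smooth muscle. These cells are atrial in type: they carry the atrial myosin light chains, and Nppa, the hormone precursor that the atrium secretes. They contract with the heart, and the sleeve is known in medicine as a source of atrial arrhythmia. In whole-tissue RNA, fewer cardiac cells and less RNA per cardiac cell cannot be told apart.

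The label of the gene group was checked against markers of neighbouring muscle. Myl2, the ventricular myosin light chain, stayed below the filter on every array, with a highest signal of 5.57 in mice and 6.08 in rats against percentiles of 6.67 and 6.65. Of 6 ventricular markers, Myl3 and Myh7 passed in mouse, with correlations with Myl7 of 0.43 and −0.10, and Hey2 alone passed in rat. Nppb, a hormone gene counted among the 6 ventricular markers, was below the filter on every array of both species. The atrial genes Myl7, Myl4 and Sln passed on 45, 45 and 45 mouse arrays and on 30, 26 and 17 of 40 rat arrays. The atrial gene Nppa passed on 40 of 45 mouse arrays and on 0 rat arrays. Markers of both kinds thus passed in part, and a place of these genes' RNA in the pulmonary veins rests on the anatomy above and was not tested.

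Promoter sequences from RefSeq (GRCm38.p6, the C57BL/6J mouse) were searched because the group's signals moved together from animal to animal. They are shown for the 4 members with a motif match wholly inside the 130 bases printed. Entries were present for 9 of the 10 genes, with 2 start sites for Tnnt2. Each line gives the 130 bases just before the start site, 5′ to 3′ on the gene's strand. Capitals mark matches that lie wholly within these bases, so a Mybpc3 GATA match in bases 131 to 126 is not marked. The motifs are the serum response factor CArG box, the MEF2 site, the GATA motif (A or T, then GATA, then A or G) and the TATA box (TATAAA). The first 3 were searched on both strands and the TATA box on the gene's strand only, and no 2 marked matches overlap. The stretches lie at chr11:5898783-5898912, minus strand, for Myl7, at chr2:114052876-114053005, minus strand, for Actc1, at chr4:148000592-148000721, plus strand, for Nppa, and at chr2:91118014-91118143, plus strand, for Mybpc3.
Myl7: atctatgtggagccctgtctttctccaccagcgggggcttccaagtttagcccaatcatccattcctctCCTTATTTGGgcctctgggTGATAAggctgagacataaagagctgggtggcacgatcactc
Actc1: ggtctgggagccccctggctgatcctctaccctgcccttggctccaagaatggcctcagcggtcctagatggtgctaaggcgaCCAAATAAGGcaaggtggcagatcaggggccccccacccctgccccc
Nppa: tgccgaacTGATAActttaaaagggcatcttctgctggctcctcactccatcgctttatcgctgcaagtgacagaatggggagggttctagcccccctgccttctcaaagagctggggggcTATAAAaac
Mybpc3: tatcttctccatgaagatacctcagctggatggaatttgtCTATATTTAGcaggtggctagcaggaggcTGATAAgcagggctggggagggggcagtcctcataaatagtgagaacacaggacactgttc

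In the 250 bases before the start, a CArG box was found for 2 of the 9 genes, Myl7 and Actc1, and 1.47% of all 32851 promoters in the table hold one. The Myl7 box spans bases 61 to 52 before the start and the Actc1 box bases 47 to 38. A GATA motif was found for 5 genes (Myl7, Nppa, Myh6, Tnnt2 and Mybpc3), against 26.5% of all promoters. The MEF2 site was found for Mybpc3 alone, and 2.92% of promoters hold it. The TATA box was found for Nppa alone, in bases 9 to 4 before the start, and 7.59% of promoters hold it. A match describes letters only, and the lack of one says nothing about binding by the factor.

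Myl7, the regulatory light chain of atrial myosin, served as the index gene. At 5 days the mouse signals on the log2 scale were 12.17, 10.94, 10.04, 11.42 and 10.19 in air, and 11.13, 12.68, 11.96, 11.18 and 10.93 at 0.3 ppm. They were 10.77, 11.45, 11.95, 11.84 and 11.85 at 2 ppm, 11.80, 11.45, 10.26, 10.43 and 11.54 at 13 ppm, and 11.46, 11.97, 11.36, 11.03 and 11.11 at 90 ppm. All 5 groups overlapped, and the air controls alone spanned 10.04 to 12.17, where all 45 mice spanned 9.95 to 12.68.

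At 15 days Myl7 read 11.58, 11.42, 10.73, 12.15 and 10.78 at 0.3 ppm, and 11.11, 9.95, 10.51, 11.31 and 11.42 at 2 ppm. It read 12.02, 11.26, 11.22, 11.11 and 11.16 at 13 ppm, and 12.39, 11.40, 11.91, 12.19 and 10.49 at 90 ppm. At 13 ppm mouse 157 stood alone above 4 mice that lay between 11.11 and 11.26. At 90 ppm mouse 181 stood below the other 4. The mouse with the highest Myl7 signal held 6.62-fold more than the mouse with the lowest.

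In rats, measured on another array, the pooled within-group SD of Myl7 was 1.33, against 0.64 in mice. At 5 days the rats read 6.71, 4.54, 5.94, 5.93 and 5.51 at 5 ppm, and 9.66, 5.84, 5.66, 7.93 and 8.38 at 30 ppm. They read 6.98, 8.09, 8.98, 8.67 and 8.09 at 90 ppm, and 8.75, 5.28, 8.86, 9.37 and 8.67 at 200 ppm. The 5 ppm rats were all low, the 30 ppm rats fell on both sides, and at 200 ppm rat 266 lay at 5.28 while its 4 group mates lay at 8.67 or above.

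At 15 days rat Myl7 read 4.60, 7.69, 7.49, 8.26 and 8.21 at 5 ppm, and 8.05, 5.42, 8.78, 7.32 and 8.81 at 30 ppm. It read 7.09, 7.89, 9.28, 8.25 and 8.37 at 90 ppm, and 9.86, 6.36, 9.45, 6.90 and 8.86 at 200 ppm. Low single rats appeared at 5 ppm (rat 225), 30 ppm (rat 242) and 200 ppm (rats 279 and 281), and all 4 groups overlapped. Over all rats Myl7 ran from 4.54 to 9.86, and the low values lay below the filter percentile of 6.65, so no fold is given.

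**Figure D1:**
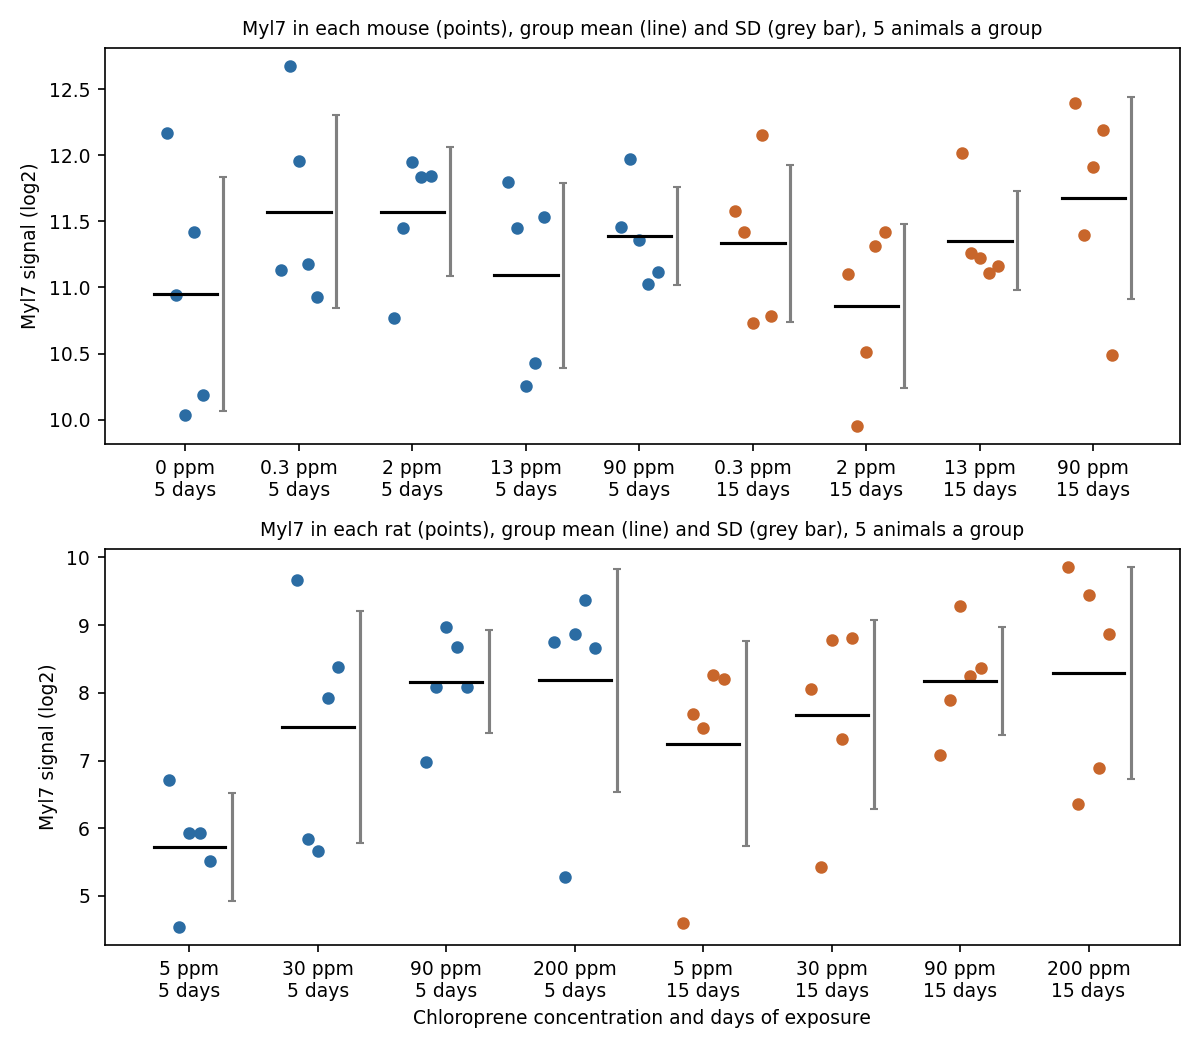
Myl7 signal on the log2 scale (vertical axis) in each mouse (top) and rat (bottom), by chloroprene concentration and days of exposure (horizontal axis; blue, 5 days; orange, 15 days). Points are single animals, black lines group means and grey bars the SD (n = 5). All mouse groups overlap, and among the rats exposed for 5 days every 5 ppm animal lies below every 90 ppm animal.

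The other atrial genes differed in breadth. Nppa, the precursor of atrial natriuretic peptide, had the widest spread of the mouse members, a pooled within-group SD of 0.94 and signals from 6.47 to 10.13. In air controls its signals were 9.50, 7.67, 7.02, 6.79 and 6.47, and at 13 ppm for 15 days they were 9.52, 6.67, 6.71, 7.75 and 6.78. In each of these groups 1 mouse carried the high value. Sln encodes sarcolipin, a small inhibitor of the calcium pump that is atrial in rodents, and Myl4 encodes the atrial essential light chain. Their mouse SDs were 0.66 and 0.57, with 7.61-fold and 4.89-fold ranges. In rats Myl4 had an SD of 0.77 and signals from 5.63 to 8.70, and Sln an SD of 0.30 and signals from 6.00 to 7.36, so that the lowest rats lay below the filter percentile of 6.65 in both.

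Among the sarcomere genes, Myh6, the fast cardiac myosin heavy chain, spread most, with SDs of 0.73 in mice and 1.15 in rats. The mouse range was 9.71-fold, and the rat signals ran from 4.78 to 9.45. Tnni3 and Tnnt2, the cardiac troponins I and T, had mouse SDs of 0.63 and 0.62, and Tnni3 had 0.52 in rats. Actc1, cardiac actin, had a mouse SD of 0.44. Mybpc3, the cardiac myosin-binding protein C, moved least, with SDs of 0.26 in mice and 0.12 in rats and a rat range of 1.42-fold. Ryr2, the calcium release channel of cardiac muscle, had a mouse SD of 0.56. The median over all genes was 0.16 in mice and 0.18 in rats, so that 9 mouse members, Mybpc3 being the exception, exceeded at least 97.1% of the genes on this measure. Rat Mybpc3 lay below the median, above 15.1% of genes only.

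Most of this variation lay between animals treated alike, as it did for the median gene. With 5 animals in each group, a gene without any group difference would also have most of its variation within groups. A large share is therefore no property of the members, and the shares are given as a description without a test. The share of each member's total variation that was found within groups ran from 75.1% for Sln to 87.1% for Mybpc3 in mice, where the median gene had 72.9%. In rats it ran from 62.9% for Tnni3 to 78.0% for Myl4, where the median gene had 65.3%.

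Members moved together within groups. After each gene was centred on its group means, the 45 mouse pairs correlated with r from 0.62 (Ryr2 with Mybpc3) to 0.99 (Myl4 with Tnni3), with a median of 0.86 over 45 arrays in 9 groups. The 15 rat pairs ran from 0.57 (Myh6 with Mybpc3) to 0.98 (Myl7 with Myh6), with a median of 0.86 over 40 arrays in 8 groups. The arrays of a pair share the animal, the RNA and the array, and no test was made. Nppa followed the mouse group least closely of the atrial genes, with a median r of 0.77.

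In some groups 1 animal led or trailed in nearly all members at once. Mouse 101 in air, mouse 118 at 0.3 ppm for 5 days and mouse 157 at 13 ppm for 15 days each had the group's highest signal for 10 of 10 members. Mouse 133 at 2 ppm for 5 days, mouse 152 at 13 ppm for 5 days, mouse 142 at 2 ppm for 15 days and mouse 181 at 90 ppm for 15 days were lowest for 9 of 10. Among rats, rat 259 at 90 ppm and rat 277 at 200 ppm, both at 15 days, were highest for 6 of 6 members. Rat 219 at 5 ppm and rat 266 at 200 ppm for 5 days, and rat 279 at 200 ppm for 15 days, were lowest for 6 of 6. Mouse 166 at 90 ppm for 5 days and mouse 128 at 0.3 ppm for 15 days were highest for 9 of 10. At other extremes, some of them in the same groups, the members were divided. Mice 103, 121, 169 and 158 were the most often lowest of their groups, with 5 of 10 members. Rats 228 and 245 were the most often highest, with 3 of 6. Averaged over the members, rat 233 lay 1.25 above and rat 266 lay −1.41 from its group mean on the log2 scale, the extremes among all 85 animals. Mouse 101 lay 1.22 above its own.

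**Figure D2:**
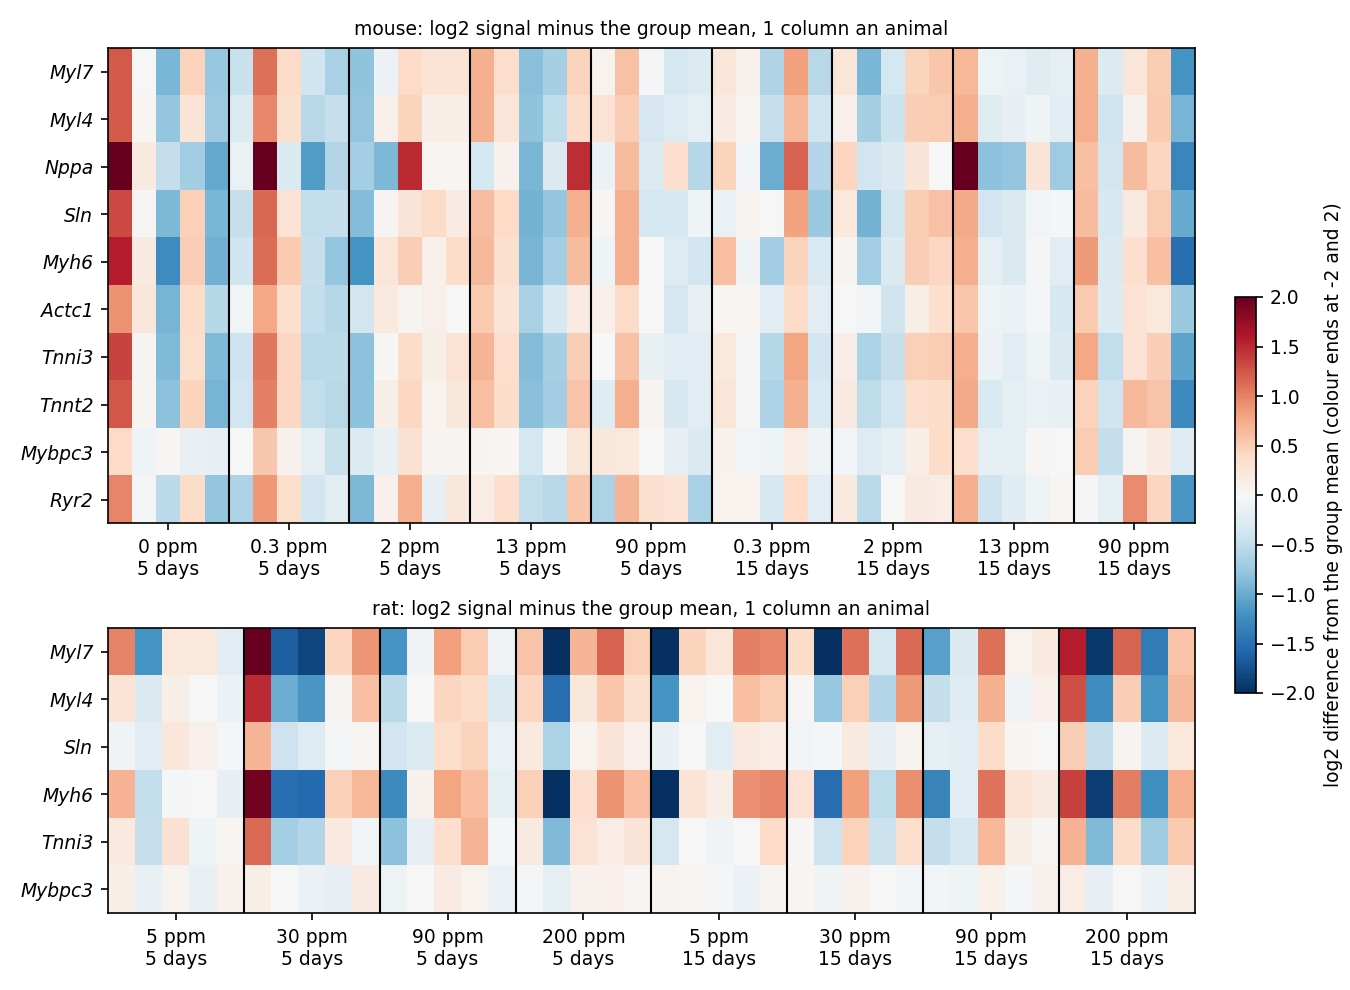
Log2 signal of each kept member (rows) in each animal (columns) minus the mean of its group, for mice (top) and rats (bottom); red is above and blue below the group mean, and vertical lines part the groups. Columns such as mouse 101, the first of the air controls, at 1.22 on average, and rat 266, second at 200 ppm for 5 days, at −1.41, have 1 colour over nearly all rows.

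Other probe sets of the members gave a mixed picture. A pair of mouse Tnnt2 probe sets passed the filter, and the one not used correlated with Myl7 at 0.95. The mouse Myl4 probe set not used passed on all 45 arrays, yet ranged only from 6.75 to 7.40 and correlated with Myl7 at −0.06. A Myh6 probe set below the filter in mouse still correlated at 0.77. The 2 mouse probe sets shared by Myh7 and Myh6 correlated at 0.87 and 0.74 and the 2 rat ones at 0.92 and 0.56, the second of each below the filter, and signals from these 2 genes cannot be told apart there. In rats Actc1 had no probe set of its own. Of 5 probe sets shared by Acta2, the smooth muscle actin, and Actc1, 4 passed, with correlations with Myl7 from 0.64 to 0.84. Rat Tnnt2 failed the filter, being above the percentile on 4 of 40 arrays, while its brighter probe set ranged from 4.84 to 7.22 and correlated with Myl7 at 0.90. Rat Nppa, between 5.91 and 6.47, showed a correlation of −0.10, and the brighter rat Ryr2 probe set, between 5.15 and 6.69, one of 0.61.

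The genes whose within-group pattern was most like Myl7 were mostly cardiac as well. In mice the highest correlations over 45 arrays were those of Tnnc1 (cardiac troponin C, 0.98), Myoz2 (0.97), Ckmt2 (mitochondrial creatine kinase of muscle, 0.97), Mybphl (0.95), Hamp (0.94), Csrp3 (0.94), Smpx (0.94), Actn2 (0.93), Tmem182 (0.92), Pln (phospholamban, 0.92), Ldb3 (0.91) and Myom2 (0.91). Hamp encodes hepcidin, the hormone of iron balance best known from liver. In rats they were Tnnc1 (0.93), Tcap (titin cap, 0.91), Cox6a2 (0.87), Fabp3 (0.84), Csrp3 (0.84), Ldb3 (0.76), Sh3bgr (0.74), Casq2 (calsequestrin, 0.70), Eef1a2 (0.67), Art3 (0.66), Pln (0.65) and Pde4dip (0.64). Tnnc1, Csrp3, Ldb3 and Pln stood in both sets. The median over all genes was 0.03 in mice and 0.13 in rats, and the 99th percentiles were 0.56 and 0.44.

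Of 18 measured mouse genes in a list of 20 further sarcomere genes, 12 correlated with Myl7 above 0.70. Myoz2, Myom2 and Ldb3 had the widest spread there, with SDs of 0.60, 0.54 and 0.53, and Unc45b, Smyd1 and Tpm1 the narrowest, with 0.18, 0.17 and 0.11. The last 3 correlated at 0.39, −0.20 and −0.05. In rats 4 of 9 measured genes passed 0.70. Of the cardiac calcium and channel genes, 3 of 10 in mice (Pln, Casq2 and Hrc) and 1 of 13 in rats (Casq2) passed 0.70. Atp2a2, the calcium pump found in many cell types, had SDs of only 0.10 and 0.06. Of the cardiac transcription factors none passed: the highest correlation was 0.14 for Mef2c among 7 measured in mice and 0.33 for Tbx5 among 9 in rats. Nkx2-5, the homeobox factor of cardiac muscle, read 0.03 in mice and did not pass the filter in rats.

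Neighbouring tissues were set against Myl7 animal by animal, in 18 relations whose p-values come from 100000 permutations within groups and were adjusted over all 18. For the tissue markers the same arrays give both values, so an effect shared by the sample, the RNA or the array is in both. Myl7 was also chosen with the signals of single animals known. The p-values therefore do not show that 2 tissues varied together. In mice the mean of 10 smooth muscle markers tracked Myl7, at r = 0.69 and rho = 0.67 (permutation test, adjusted p = 0.00054 and 0.0018), and r was 0.68 without the 2 most distant arrays. All 10 markers correlated positively, from 0.31 for Smtn to 0.66 for Cnn1, the calponin of contractile smooth muscle. In rats 9 markers gave r = 0.46 and rho = 0.43 (permutation test, adjusted p = 0.11 and 0.091), and r = 0.38 without the 2 most distant arrays. Acta2 belongs to these markers, and in rat some of its probe sets are shared with Actc1.

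**Figure D3:**
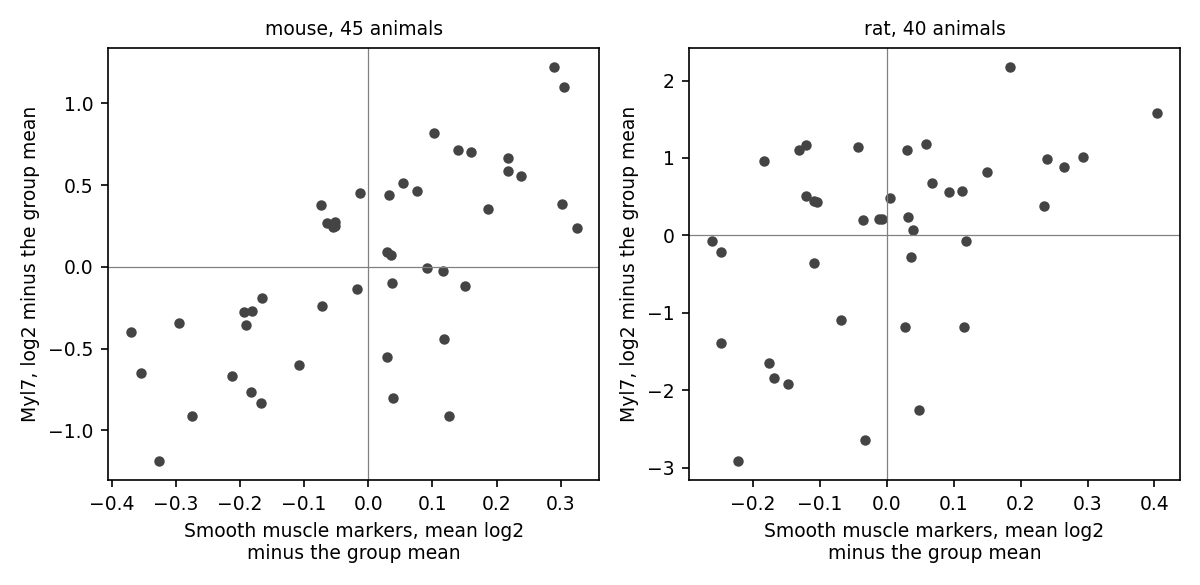
Myl7 (vertical axis) against the mean of the smooth muscle markers (horizontal axis), both as log2 signal minus the group mean, in 45 mice (left) and 40 rats (right), 1 point an animal. The mouse points rise together with r = 0.69, and the rat points do so less closely with r = 0.46.

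The other neighbouring tissues did not track Myl7 on both measures after adjustment. Brown and white fat markers in mice gave r = 0.25 and rho = 0.45 (permutation test, adjusted p = 0.31 and 0.035), and r = 0.53 without the 2 most distant arrays. Ucp1, the uncoupling protein of brown fat, ranged from 6.13 to 13.7 between mice and itself correlated with Myl7 at −0.06. Skeletal muscle markers in mice gave r = 0.07 and r = 0.48 without the 2 most distant arrays (permutation test, adjusted p = 0.72 for all arrays). Acta1, the skeletal muscle actin, reached 10.4 against a mean of 6.54, and correlated at −0.01. The RNA integrity number gave r = −0.33 over 40 mice and −0.32 over 38 rats (permutation test, adjusted p = 0.28 for each). Without the 2 most distant arrays these were −0.44 and −0.09 (permutation test, unadjusted p = 0.01 and 0.68). Mesothelial markers gave −0.35 in mice (permutation test, adjusted p = 0.14) and −0.26 in rats (permutation test, adjusted p = 0.28). The 8 lung epithelial markers, with median SDs of 0.05 in either species, gave 0.14 in mice and 0.31 in rats (permutation test, adjusted p = 0.63 and 0.28). Thymus, cartilage and erythroid markers gave r = −0.12, 0.26 and −0.08 in mice (permutation test, adjusted p = 0.63, 0.28 and 0.72), and 0.12, 0.15 and −0.07 in rats (permutation test, adjusted p = 0.63, 0.63 and 0.72). In rats skeletal muscle markers gave −0.14 and fat markers 0.13 (permutation test, adjusted p = 0.64 and 0.63).

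In mice no member passed the test against exposure. At 90 ppm for 5 days, 0 of 10 members passed in limma at an adjusted p of 0.05, while 16.3% of all genes did, and 0 members had an unadjusted p under 0.05. All 10 changes against air were above 0, from 0.14 for Actc1 to 0.87 for Myh6, with a median of 0.43, against 0.01 over all genes. Myh6 read 10.995, 11.82, 11.10, 10.83 and 10.70 at 90 ppm, and 11.78, 10.39, 8.96, 10.70 and 9.26 in air. The groups overlapped, with 1 exposed mouse, at 11.82, above the highest control and the other 4 inside the control range. The Myh6 change was 0.87 ± 0.44 (SE, limma, adjusted p = 0.19).

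Single controls moved these values. Without mouse 101 the Myh6 change was 1.26 (limma, adjusted p = 0.041), and 1 member passed. Without mouse 103 it was 0.56. Actc1 turned to −0.09 without mouse 103. In a fit with array weights, 4 members (Actc1, Myl4, Myl7 and Nppa) were below 0, Myl7 at −0.08. At 0.3 ppm and 2 ppm for 5 days all 10 changes were again above 0, with medians of 0.58 and 0.61, and 0 of 10 members passed in limma (background 0% and 1.2%; 1 member, Myh6, under an unadjusted p of 0.05 in each). At 13 ppm 7 of 10 changes were above 0, 0 passed (background 1.3%), and 7 of 10 changed sign when some single animal was left out. These 4 comparisons share the same 5 air controls.

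Genes of the wider cardiac lists were counted in mice at 90 against 0 ppm for 5 days. Of all 13796 genes 16.3% were called there, 1240 as higher and 1014 as lower. Of 18 measured further sarcomere genes 14 changes were above 0, with a median of 0.22, but none rose in the test and 2 fell, Tpm1 (tropomyosin) by 0.35 and Ankrd1 by 0.44 on the log2 scale. Of 10 calcium and channel genes none rose and 3 fell: Gja1 (a gap junction protein) by 0.88, Cacna1c by 0.61 and Jph2 by 0.46. Of 7 transcription factors Mef2c fell by 0.68, and of 13 metabolic genes Hspb7, a small heat shock protein of muscle, rose by 0.83 ± 0.23 (SE, limma, adjusted p = 0.008) while Popdc2 fell by 0.30. Hspb7 correlated with Myl7 at 0.86 within groups and rose at 15 days too, by 0.79 ± 0.23 (SE, limma, adjusted p = 0.023).

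At 15 days the 90 ppm mice gave 9 of 10 changes above 0 against 0.3 ppm, with a median of 0.30, and 0 passed in limma (background 7.97%). At 2 ppm all 10 were below 0, with a median of −0.43, and at 13 ppm 4 were above 0, with a median of −0.06; 0 passed (background 0.109% and 0.326%). None of these had a member under an unadjusted p of 0.05. Myl7 changed by 0.34 ± 0.38 (SE) at 90 ppm, and by 0.16 to 0.64 with single animals left out. Between 15 and 5 days 0 members passed in limma at 0.3, 2, 13 or 90 ppm (background 0%, 0.0435%, 2.28% and 0.123%). At 2 ppm 9 of 10 were lower at 15 days, with a median of −0.67, and Sln and Tnnt2, at −0.90 and −0.82, were the 2 under an unadjusted p of 0.05. The change from 0.3 to 90 ppm did not pass for any member as differing between 15 and 5 days (background 0.0435%, with 0 members under an unadjusted p of 0.05).

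Rats at 5 days gave the only calls. At 200 against 5 ppm, 4 of 6 kept members rose in limma and none fell (adjusted p under 0.05), where 36.3% of all genes were called, 4.68% as higher and 31.6% as lower. Myl7 rose by 2.46 ± 0.80 (SE, limma, adjusted p = 0.019). At 5 ppm only 1 of 5 rats lay above the filter percentile of 6.65 for Myl7, 0 for Myh6, Myl4 and Sln, and 3 for Tnni3, so these changes are differences of signal from low values and no fold is given. Myh6 read 8.70, 5.91, 8.55, 9.11 and 8.81 at 200 ppm, and 6.58, 5.39, 5.87, 5.88 and 5.72 at 5 ppm. It rose by 2.33 ± 0.69 (SE, limma, adjusted p = 0.012). Of the 200 ppm rats 4 lay above every 5 ppm rat, and rat 266 lay among them.

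Tnni3 read 7.99, 6.93, 8.10, 7.96 and 8.08 at 200 ppm, and 6.84, 6.19, 6.94, 6.55 and 6.68 at 5 ppm, and rose by 1.17 ± 0.31 (SE, limma, adjusted p = 0.0068). Sln read 7.10, 6.27, 6.98, 7.17 and 7.02 at 200 ppm, and 6.15, 6.00, 6.45, 6.32 and 6.19 at 5 ppm. It rose by 0.69 ± 0.18 (SE, limma, adjusted p = 0.0068). At 5 ppm Sln lay above the filter percentile in 0 of 5 rats at either duration. Sln thus passed the filter only through arrays of higher concentrations. Its place among the 6 kept members, and in the count of those that rose, is not independent of these groups. Myl4 changed by 1.11 (limma, adjusted p = 0.056) and Mybpc3 by 0.13 (adjusted p = 0.16), neither passing. Rat 266 was the lowest of its group in all 6 members, and without it the Myl7 change was 3.19 and 5 members passed. Without rat 268 or rat 219, 3 passed. The shares of all genes called with a rat left out are not given here. The median change of the 6 kept members was 1.14, against −0.14 over all genes, and with the shift of all genes taken off Myl7 differed by 2.60. Members that failed the filter were read in a fit without it, where 527 of 14217 genes were called as higher. Rat Tnnt2 differed by 1.00 (limma, adjusted p = 0.048), Ryr2 by 0.35 (adjusted p = 0.20) and Nppa by 0.00098 (adjusted p = 0.99). Tnnt2 lay above the percentile on 4 of 40 arrays only, so the number of members called depends on the filter.

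At 90 against 5 ppm for 5 days 3 of 6 members rose in limma (background 23.6%, 4.13% called as higher and 19.5% as lower). Myh6 read 6.59, 7.96, 8.67, 8.47 and 7.67 at 90 ppm, and Tnni3 read 6.86, 7.51, 8.02, 8.36 and 7.65, where the 5 ppm rats are those given above. For Tnni3 the lowest 90 ppm rat lay below the highest 5 ppm rat, at 6.94. Myl7 rose by 2.44 ± 0.80 (SE, limma, adjusted p = 0.034), Myh6 by 1.99 ± 0.69 (adjusted p = 0.041) and Tnni3 by 1.04 ± 0.31 (adjusted p = 0.029). The 5 rats at 90 ppm lay above all 5 rats at 5 ppm in Myl7, Myh6 and Myl4, which 2.88% of all genes also did. Myl4 read 6.57, 7.12, 7.53, 7.47 and 6.83 at 90 ppm, and 6.41, 5.85, 6.25, 6.15 and 6.03 at 5 ppm, and its change of 0.96 did not pass (adjusted p = 0.095). All 3 calls ended without rat 217, 219, 221, 251 or 252, and 1 was left without rat 250 or 253. The Myl7 change stayed between 2.14 and 2.73. Without rat 217 the 3 changes were larger than with all rats, at 2.69 for Myl7, 2.16 for Myh6 and 1.09 for Tnni3. A lost call is therefore not always a smaller change. The shares of all genes called in these fits are not given here, so these counts have no background.

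At 30 against 5 ppm 0 of 6 members passed in limma (background 0%), with 4 under an unadjusted p of 0.05. All 6 changes were above 0, with a median of 0.91. Tnni3 read 8.79, 6.98, 7.08, 7.85 and 7.61 at 30 ppm, against 6.84, 6.19, 6.94, 6.55 and 6.68 at 5 ppm. The groups did not overlap for Tnni3, which 0.0999% of all genes did in this direction, and its change was 1.02 ± 0.31 (SE, limma, adjusted p = 0.27). The 3 comparisons at 5 days share the same 5 rats at 5 ppm, all of them low, so their changes are not separate observations.

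Other values also differed between these rat groups. The RNA integrity numbers were 7.3 to 8.5 at 5 ppm, 9.2 to 9.3 at 90 ppm and 7.1 to 8.7 at 200 ppm (4 rats). Their medians were 8.3, 9.2 and 7.65, so against 5 ppm the number was higher at 90 ppm and lower at 200 ppm. With the number as a covariate, over the rats that have one, 3 members passed at 200 ppm and 0 at 90 ppm, while the Myl7 changes were 2.12 and 3.52. At 90 ppm Myh6 and Tnni3 changed by 2.80 and 1.28 in that fit, more than without the covariate. Every 90 ppm rat had a higher number than every 5 ppm rat, so number and concentration cannot be told apart between these 2 groups. The share of all genes called in that fit is not given here, so these counts have no background. Of the smooth muscle markers 9 of 10 were measured, 3 rose (Myh11, Cnn1 and Mylk) and Smtn fell at 200 ppm, and 2 rose (Myh11 and Mylk) and Smtn fell at 90 ppm, where 4.68% of all genes were called as higher and 31.6% as lower at 200 ppm, and 4.13% and 19.5% at 90 ppm. Their summed signal was 8247 to 9428 at 5 ppm, 8616 to 11284 at 90 ppm and 10112 to 11340 at 200 ppm. Skeletal muscle markers were measured for 3 of 20 genes, with summed signals of 1990 to 2544 at 5 ppm, 2431 to 2791 at 90 ppm and 2547 to 2870 at 200 ppm. Most of this sum is the signal of Myh1, with a mean of 11.08 on the log2 scale over all rats. Tnni1 and Mybpc2 had means of 6.85 and 7.53. Within groups Myh1 correlated with Myl7 at −0.14. Acta1 and Myh4 were below the filter on every rat array. The part of smooth muscle and of skeletal muscle in the result was not tested.

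The wider cardiac lists in the 5-day rats are counted against 4.68% of all genes called as higher and 31.6% as lower at 200 ppm, and 4.13% and 19.5% at 90 ppm. At 200 against 5 ppm 4 of 9 measured further sarcomere genes rose and none fell, with a median of 0.56. They were Tcap, at 0.96 ± 0.28 (SE), Csrp3, at 0.89 ± 0.27, Ttn (titin), at 0.56 ± 0.18, and Nexn, at 1.08 ± 0.39. Nexn was unlike Myl7 within groups, with a correlation of −0.21. Of 13 calcium and channel genes 1 rose (Casq2, 0.42) and 2 fell, and of 9 metabolic genes 2 rose (Fabp3, 0.53, and Dkk3, 0.26) and 2 fell. Of 9 transcription factors Mef2c rose by 0.81, while Gata4 fell by 0.62 and Gata6 by 0.375. At 90 against 5 ppm 2 of 9 sarcomere genes rose, Nexn and Ttn.

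At 15 days no rat member passed in limma at 30, 90 or 200 against 5 ppm (background 1.66%, 0.309% and 0.817%), although all 6 changes were above 0 in each, with medians of 0.20, 0.32 and 0.56. The members under an unadjusted p of 0.05 were 1, 0 and 2. In a fit with array weights 1, 6 and 1 passed, but so did 59.7%, 56.3% and 26.6% of all genes, and the weights were 8.39 for rat 259 at 90 ppm and 6.59 for rat 227 at 5 ppm. Myl7 changed by 1.04 ± 0.80 (SE) at 200 ppm, and by 0.38 without rat 225, the low rat at 5 ppm. Mybpc3 did not overlap between 30 and 5 ppm or between 200 and 5 ppm, as was so for 2.92% and 1.09% of all genes in this direction, with changes of 0.16 and 0.23. Between 15 and 5 days 0 members passed at 5, 30, 90 or 200 ppm (background 0%, 7.12%, 11% and 0.127%, and 0 members under an unadjusted p of 0.05). Myl7 at 5 ppm differed by 1.52 between 15 and 5 days. The change from 5 to 200 ppm did not pass for any of the 6 members as differing between 15 and 5 days, where 11.4% of genes did. The calls at 5 days and their lack at 15 days are therefore not shown to differ.

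**Figure D4:**
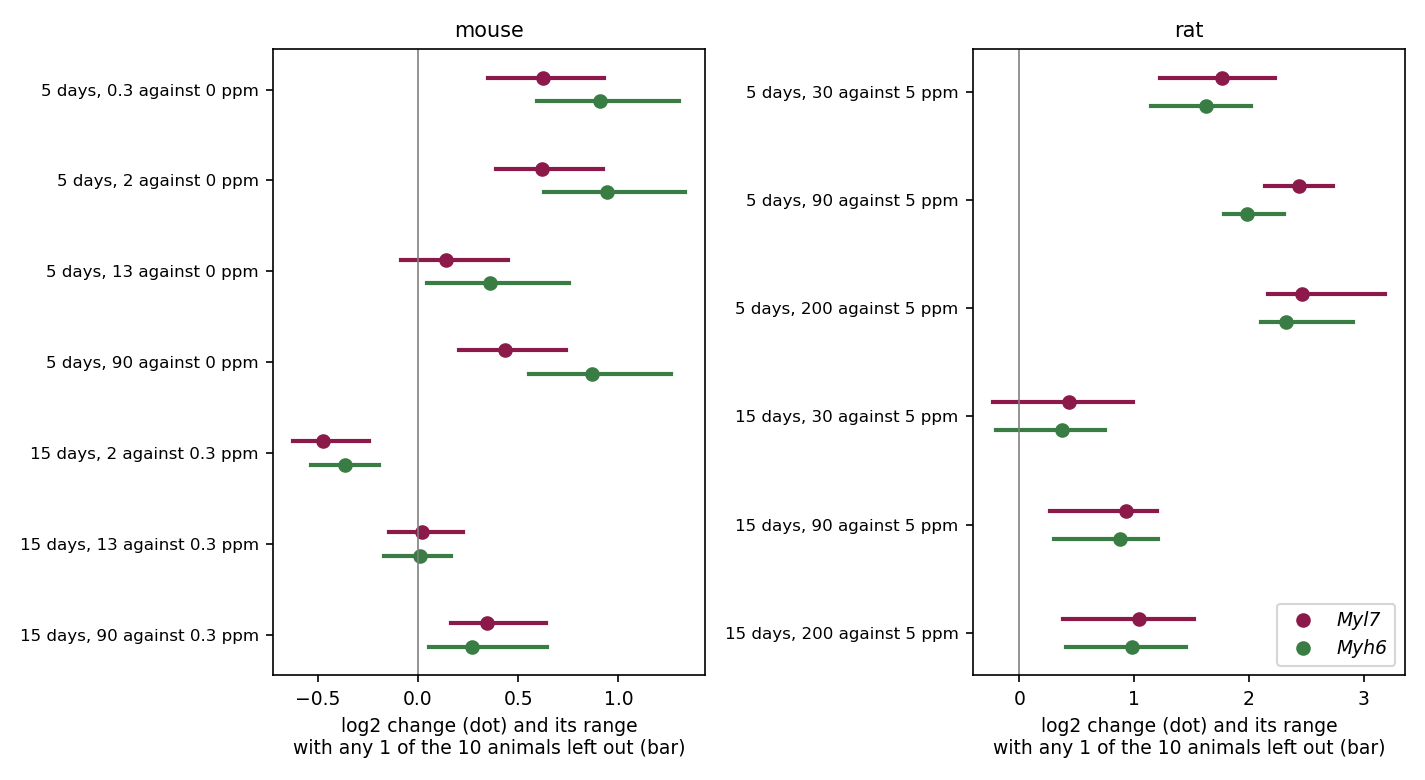
Log2 change of Myl7 (purple) and Myh6 (green) for each dose comparison (vertical axis) in mice (left) and rats (right); dots are the change with all animals and bars its range when any 1 of the 10 animals compared is left out. For Myl7 the bars cross 0 at 13 ppm in mice at either time and at 30 ppm for 15 days in rats, and at 200 ppm for 5 days in rats the bar runs from 2.16 to 3.19.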

How the data were processed

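The deposited tables hold 1 value per probe set and array on a log2 scale, read from the values (range 3.07 to 15.3), since the sources used here give neither scale nor method. The authors' arrays had been made comparable before deposit: array medians lay within 0.10 in mice and 0.08 in rats. RNA was prepared with Trizol and RNeasy, per the labels' protocols. Control probe sets and those with several or no symbols were left out, and symbols came from the platform annotation. A gene was represented by its passing probe set with the highest mean. Groups were taken from the titles.

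limma 3.58.1 in R 4.3.3 was fitted on the log2 values over all arrays of a species, with a mean per group, moderated variances and two-sided p-values. They were adjusted across all genes tested in each comparison by the Benjamini-Hochberg method (threshold 0.05). Pooled within-group SDs and correlations used values centred on group means, and relations with marker lists or the RNA integrity number used 100000 permutations within groups (Python 3.11.15). The array number per group, 5, limits the precision. Members and gene lists were chosen with earlier results of these data known, so adjusted p-values of members are not independent of the choice. The genes named beside the members were the 12 most correlated with Myl7 in each species, and those with the 3 widest and 3 narrowest spreads among the further sarcomere genes. Other list genes were named after their values were seen. Alternatives covered the filter, probe set choice, normalization, integrity number, array weights, label conflicts and leaving out each animal. Member counts with the integrity number as covariate or with an animal left out are given without the share of all genes called.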

Additional observations from a re-analysis of the deposited data

Results flagged for a closer look

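Dixon's gap ratio was above its critical value of 0.71 in 19 of 138 member and group combinations of 5 animals. These were 13.3% of the mouse combinations, against 6.03% over all genes, and 14.6% of the rat ones, against 8.21%. The members were chosen with the signals of single animals known, so these values are a description and support nothing. Chance flags about 1 in 20 groups, and since members move together, the values come from few animals and are not separate observations.

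Mouse 157 (13 ppm, 15 days) stood high for Myl7 (12.018), Myh6 (11.614), Myl4 (11.574), Tnnt2 (10.426) and Tnni3 (10.566). Mouse 133 (2 ppm, 5 days) stood low for Myh6 (9.970), Myl4 (10.241), Tnnt2 (9.242), Tnni3 (9.132) and Sln (9.172). Mouse 166 (90 ppm, 5 days) stood high for Tnni3 (10.430), and mouse 142 (2 ppm, 15 days) low for Ryr2 (6.297).

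Rat 266 (200 ppm, 5 days) stood low for Myl7 (5.276), Myh6 (5.910), Myl4 (5.733), Tnni3 (6.934) and Sln (6.273). Rat 225 (5 ppm, 15 days) stood low for Myl7 (4.600) and Myh6 (4.780).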

How the results depend on the processing

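No paired analysis was possible because the labels number each animal once and no number is shared between groups. With array weights, 1 rat member passed at 30 ppm for 5 days, and 1, 6 and 1 passed at 30, 90 and 200 ppm for 15 days, in a fit that called 45%, 59.7%, 56.3% and 26.6% of all genes in these 4 comparisons. With the weights, in which mouse 101 counted 4.57, changes at 90 ppm for 5 days in mice were −0.3112 for Actc1, −0.0901 for Myl4, −0.0768 for Myl7 and −0.2498 for Nppa. With the RNA integrity number as covariate 0 rat members passed at 90 ppm for 5 days. With single animals left out, members passing ranged from 0 to 1 in mice at 90 ppm for 5 days and from 0 to 4 in rats at 90 ppm for 5 days. Actc1 ranged from −0.0933 to 0.3642 (mice, 90 ppm, 5 days) and from −0.0232 to 0.2912 (15 days), Mybpc3 from −0.2268 to 0.0186 (mice, 90 ppm, 15 days) and from −0.0413 to 0.0338 (rats, 90 ppm, 5 days). Mybpc3 in mice at 90 ppm for 15 days was 0.2391 without mice of conflicting duration and 0.0964 without mice whose number carries a letter. In rats at 90 ppm for 5 days it was 0.0106 after quantile normalization, 0.0353 with the integrity number and 0.0794 with array weights. Without the 2 most distant arrays, mouse Myl7 correlated with the integrity number at −0.4431, with skeletal markers at 0.4825 and with fat markers at 0.5292, and rat Myl7 with thymus markers at −0.0709. Other members in place of Myl7 gave, in mice, −0.5109 (integrity number), −0.0524 (skeletal) and −0.4033 (thymus) for Ryr2, −0.2735 (mesothelium) for Actc1, 0.4222 (fat) for Sln, 0.3587 (cartilage) for Myl4 and 0.1344 (erythroid) for Mybpc3. In rats they gave 0.0774 (skeletal) for Sln, 0.3628 (smooth muscle) for Tnni3, −0.3134 (mesothelium) for Myh6, and −0.0016 (thymus) and 0.4238 (cartilage) for Mybpc3. After quantile normalization rat Myl7 correlated with mesothelium at −0.3011. The causes of these shifts were not tested.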
